A study of Mus musculus with 8 samples.

Results

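Rab GTPases are small GTP-binding proteins that mark the membranes of the cell and steer vesicles between them. The Tbc1d proteins carry the TBC domain, which in many of them speeds GTP hydrolysis on Rabs and so turns the Rabs off. Exchange factors load a Rab with GTP, effectors such as tethers, motors and adaptors bind the loaded form, and lipid-anchored Rabs are taken on and off membranes by escort proteins and GDIs. In blood cells, particular Rabs are known for lysosome-related organelles and secretory granules, such as those of platelets, mast cells and cytotoxic lymphocytes. The genes described here are all symbols that begin with Rab followed by a digit, or with Tbc1d, which came to 86 of the 14033 symbols measured. They comprise 50 Rab GTPases, 9 genes named after a Rab that encode its regulators or effectors (Rab3gap1, Rab3gap2, Rab3ip, Rab3il1 and Rab11fip1 to Rab11fip5), and 27 Tbc1d genes.

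The RNA came from sorted lineage-negative, Kit+ and Sca1+ cells, labelled hematopoietic progenitors, from livers of E14.5 mouse embryos of a cross of Flt3-Cre with mTmG. The sample titles also name Cd150, without a sign, which is read here as CD150+. Both fractions carry the mTmG reporter, which makes Tomato until Cre recombination replaces it for good with GFP, so the GFP+ fraction (4 libraries) holds cells in which Flt3-driven Cre was active in the cell or in an ancestor, and the Tomato+ fraction (4 libraries) holds cells without recombination. The comparison asks how expression differs between such cells with and without a history of Flt3-Cre activity. The table analysed gives 1 mean normalized count per fraction for each row, with the authors' p-value, and no value per library. Spread between libraries therefore cannot be shown beside a mean, depth per library is unknown, and the labels do not say whether libraries came from separate embryos, so the p-values may reflect technical spread. The sort genes were all measured. In the authors' deposited table Kit averaged 4087 in GFP+ against 4949.6 in Tomato+, Ly6a (Sca1) 59.5 and 70.1, and Slamf1 (CD150) 27.9 and 119 (adjusted p = 4.95e-08), although the titles name Cd150 for both fractions. Flt3 had 3753 and 1617 there, so Flt3 RNA was present in Tomato+ too.

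Most Rab and Tbc1d genes did not pass the authors' test between the fractions. Rab27b, Rab38, Rab44, Rab37 and Rab11fip3 were lower in GFP+, and Rab3c was higher. At the authors' adjusted p under 0.05 that is 6 of 86 members, or 6.98%, beside 7.49% of all 14268 rows, so the number of calls is near the background. Of these, 5 were lower (5.81% of members, beside 2.64% of all rows) and 1 was higher (1.16%, beside 4.86%). Whether this direction is particular to the family was not tested. The median log2 of the GFP+ mean over the Tomato+ mean was -0.09 for the members and 0.01 for all rows, and 54 members lay below 0 and 32 above. Scaling both fractions to the same total lowers every log2 value by 0.16, which leaves 11 members above 0 and turns the sign of values between 0 and 0.16, but of none of the 6 calls. At an unadjusted p under 0.05, 14 members were lower and 2 higher, against 857 lower and 1457 higher among all rows. In both directions together these are 18.6% of members and 16.2% of all rows.

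**Figure D1:**
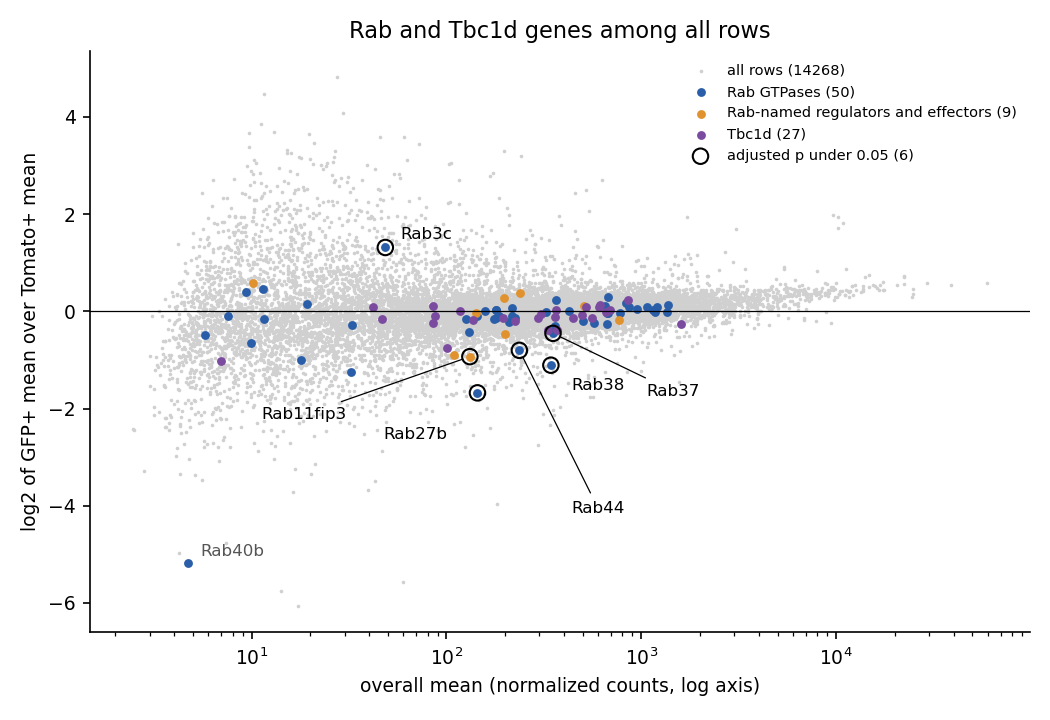
Each point is 1 row of the table, with its overall mean in normalized counts on a log axis and the log2 of the GFP+ over the Tomato+ mean; grey points are all 14268 rows, coloured points the 86 members, and rings the 6 with an adjusted p under 0.05. The members crowd along 0, 5 ringed genes lie below it and Rab3c lies above; Rab40b, at the lower left, has a very low mean and no ring.

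Rab27b had the smallest p of the family. It encodes a Rab that docks secretory granules at the plasma membrane, best known from platelets and mast cells. Its mean was 68.7 normalized counts in GFP+ and 219.7 in Tomato+, 3.20-fold lower in GFP+ (the authors' deposited table, adjusted p = 3.21e-11). Its close relative Rab27a, picked once its values were known and needed for the granules of cytotoxic lymphocytes, had means of 673 and 621 and did not pass (log2 of 0.11, the authors' deposited table, adjusted p = 0.918). Per kilobase of exon, the scale on which levels of different genes can be set side by side, Rab27a was the more abundant of the pair, and Rab27b made up 4.12% of their summed level in GFP+ and 13.0% in Tomato+.

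Rab38 directs enzymes to melanosomes and to the dense granules of platelets, a task it shares with Rab32. Its GFP+ mean of 218 was 2.16-fold below the Tomato+ mean of 469 (the authors' deposited table, adjusted p = 2.74e-08). Rab32, picked likewise, averaged 193 in GFP+ against 224 in Tomato+ and did not pass (log2 of -0.21, the authors' deposited table, adjusted p = 0.774). Rab38 was the more abundant of both per kilobase, with 74.1% of their summed level in Tomato+ and 60.5% in GFP+.

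Rab44, an unusually large Rab with calcium-binding EF hands that is found in blood cells, averaged 172 in GFP+ against 301 in Tomato+, 1.74-fold lower in GFP+ (the authors' deposited table, adjusted p = 0.00875). Rab37, a Rab of secretory granules first described in mast cells, had means of 297 and 407, 1.37-fold lower in GFP+ (the authors' deposited table, adjusted p = 0.0285). Rab11fip3, an effector that binds Rab11 on recycling endosomes and acts in the last step of cell division, had means of 90.6 and 173, 1.91-fold lower in GFP+ (the authors' deposited table, adjusted p = 0.0164). The fold for Rab37 was the smallest of these calls. Among the other Rab11 effectors, Rab11fip5 averaged 76.5 in GFP+ against 142 in Tomato+ and missed the threshold (log2 of -0.89, the authors' deposited table, adjusted p = 0.0665). Rab11fip1 and Rab11fip2, picked once their values were known, showed log2 values of -0.47 and 0.27, with adjusted p = 0.247 and 0.797 (the authors' deposited table). The 5 Rab11fip genes thus lay on both sides of 0, and differences between them were not tested. Exons of Rab11fip3 overlap the opposite-strand gene 1700022N22Rik over 515 bases, 8.87% of their length in the reference annotation, and whether reads were counted by strand is not stated. With a Bonferroni adjustment Rab44, Rab37 and Rab11fip3 are no longer called.

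Rab3c, a Rab of the synaptic vesicle group that neurons use for regulated release, was the 1 member called higher in GFP+. Its mean was 69.2 normalized counts in GFP+ and 27.9 in Tomato+, 2.49-fold (the authors' deposited table, adjusted p = 6.64e-05). The other measured genes of this group did not pass. Rab3a had low means of 11.9 in GFP+ and 24.0 in Tomato+ (log2 of -1.01, the authors' deposited table, adjusted p = 0.948), and Rab3d, the Rab3 form of exocrine and mast cell granules, picked once its values were known, 157.2 and 157.1. Per kilobase Rab3d was the most abundant of the 3 genes, and Rab3c made up 14.4% of their summed level in GFP+ and 5.57% in Tomato+. Rab3il1, an exchange factor for the Rab3 group, was just short of the threshold with means of 269.5 in GFP+ and 207 in Tomato+ (log2 of 0.38, the authors' deposited table, adjusted p = 0.0516).

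**Figure D2:**
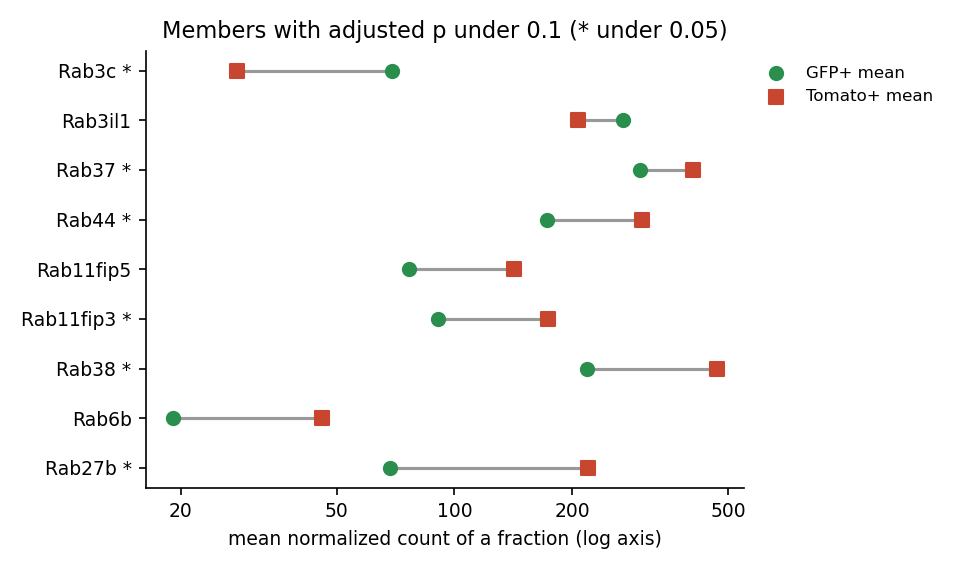
Mean normalized count in GFP+ (green circles) and Tomato+ (red squares), on a log axis, for the 9 members with an adjusted p under 0.1; asterisks mark the 6 under 0.05. The GFP+ mean is the lower one for 7 genes and the higher one for Rab3c and Rab3il1, and the widest gap is that of Rab27b.

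Markers of several other cell types differed between the fractions too, measured on the same libraries. They are counted as lower or higher at the authors' adjusted p under 0.05, which 2.64% and 4.86% of all rows reached. Of 8 megakaryocyte and platelet markers 6 were lower and 0 higher in GFP+, and their summed means were 562 in GFP+ and 1934 in Tomato+. Of 10 neutrophil and mast cell markers 1 was lower and 3 were higher, and the mast cell genes Cpa3 and Hdc had log2 values of -0.59 and -1.08 without passing (the authors' deposited table, adjusted p = 0.264 and 0.0752). On the side of the GFP+ fraction, 6 of 8 measured erythroid, 8 of 10 macrophage, 8 of 8 hepatoblast and 6 of 9 B lymphoid markers were higher and 1 erythroid marker, Gata1, was lower, with summed means of 36536.5 against 10741, 1467 against 473, 2492 against 680.2 and 1099.8 against 297. Of the endothelial markers 5 of 8 were lower, with summed means of 1529 in GFP+ and 3139.8 in Tomato+. None of the markers listed had a mean of 0 in either fraction (3 erythroid and 1 hepatoblast gene were not analysed here). That holds for every row, so it says nothing about the markers. The part of these cell types in the Rab differences was not tested. In bulk RNA, fewer cells of a type and less RNA per cell cannot be told apart.

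By role, the calls fell in 3 of 7 groups, which were drawn up with earlier results of these data known. Over all rows 7.49% were called, and at that share a small group may hold few calls or none. Differences between the groups were not tested. Of 13 secretory Rabs, which act between the Golgi, granules and the plasma membrane, 3 were lower (Rab27b, Rab44 and Rab37) and 1 was higher (Rab3c). These are 23.1% and 7.69%, beside 2.64% and 4.86% of all rows. The group's median log2 was -0.14, or 0.00069 over the 9 with a mean of at least 50. The most abundant of them, Rab10, a Rab of transport from the Golgi to the surface, averaged 1425 in GFP+ against 1307 in Tomato+ and did not pass (log2 of 0.12, the authors' deposited table). Of 8 Rabs of late endosomes and lysosomes Rab38 was lower and none was higher (12.5% called), with a median of -0.11. Rab7, which governs the fusion of late endosomes with lysosomes, had the largest positive value of that group, with means of 748 and 607 (log2 of 0.30, the authors' deposited table, adjusted p = 0.800). Exons of Rab7 overlap those of the opposite-strand gene Gm5577 over 7.82% of their length in the reference annotation. Gm5577, picked once its values were known, was lower in GFP+, with means of 98.4 and 170 (log2 of -0.79, the authors' deposited table, adjusted p = 0.0393). Whether reads were counted by strand is not stated, so the value of Rab7 is uncertain.

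None of the 11 Rabs of the endoplasmic reticulum and Golgi passed, beside 7.49% of all rows, and 1, Rab6b, had an unadjusted p under 0.05. Rab6b, the form of Rab6 best known from neurons, averaged 19.2 in GFP+ against 45.8 in Tomato+ (log2 of -1.26, the authors' deposited table, adjusted p = 0.0887). It was a small part of the Rab6 pair, at 1.94% of the summed level per kilobase in GFP+ and 4.42% in Tomato+. The group's 8 genes with a mean of at least 50 all lay within 0.25 of 0 on the log2 scale. They include Rab1 and Rab1b, picked after their values were seen, which carry vesicles from the endoplasmic reticulum to the Golgi and lay at log2 values of 0.10 and 0.05 (the authors' deposited table).

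None of the 14 Rabs of early and recycling endosomes passed either, beside 7.49% of all rows. The group's median log2 was -0.03, and Rab31, which carries cargo between the Golgi and endosomes, was its 1 gene with an unadjusted p under 0.05, with means of 322 in GFP+ and 396 in Tomato+ (the authors' deposited table, adjusted p = 0.305). Rab5c, of the Rab5 group that defines the early endosome, had the highest level per kilobase of all 86 members, at 634 in GFP+ and 593 in Tomato+. Its means were 1249 and 1168, and those of Rab11b and Rab14, both of recycling endosomes, were 1350.4 and 1356, and 1165 and 1179.7 (the authors' deposited table). Across these abundant Rabs the fractions differed by log2 values of 0.10 or less in either direction. Rab15 had the largest positive value of the group, from low means of 13.3 and 9.63 (log2 of 0.47, the authors' deposited table, adjusted p = 1).

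The 4 Rabs of the cilium and other sites had no call, beside 7.49% of all rows called. Rab40b, which recruits a ubiquitin ligase, had a mean of 0.255 in GFP+, which sums to 1.02 normalized counts over the 4 libraries, and 9.19 in Tomato+ (unadjusted p = 0.0218, the authors' deposited table, adjusted p = 0.183). Since the GFP+ value rests on about 1 count, no fold is given. Rab11fip4 and Rab33a, the latter a Golgi Rab of lymphoid and neural cells, also had low means, with log2 values of 0.58 and 0.40 and no call in the authors' deposited table.

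**Figure D3:**
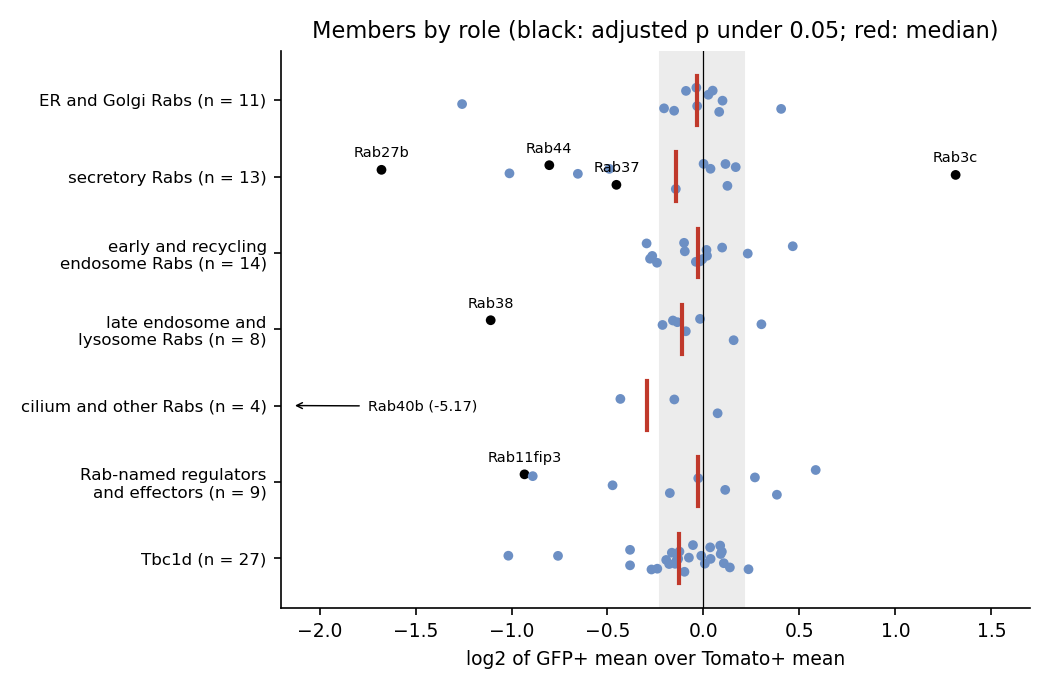
Log2 of the GFP+ over the Tomato+ mean for each member, by role; black points have an adjusted p under 0.05, red bars are group medians, the grey band is the middle 50% of all rows, and points are spread vertically for sight only. Called genes appear among secretory Rabs, late endosome and lysosome Rabs and Rab-named effectors, and the 27 Tbc1d genes hold none; Rab40b lies beyond the axis on the left.

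The Tbc1d genes, many of which encode inactivators of Rabs, had no call among 27, beside 7.49% of all rows called. Of them, 4 had an unadjusted p under 0.05, all lower in GFP+. These are 14.8% of the Tbc1d genes, near the 16.2% of all rows with such a p. Their median log2 was -0.13, with 18 genes (66.7%) below 0 and 9 above, beside 48.8% of all rows below 0. Tbc1d9b, a GAP with the highest overall mean of all members, averaged 1445 in GFP+ against 1743 in Tomato+ (log2 of -0.27, the authors' deposited table, adjusted p = 0.12). The other 3, chosen after their values were seen, were Tbc1d4, Tbc1d24 and Tbc1d8b. Tbc1d4, known as AS160 and a target of Akt in glucose transporter traffic, showed means of 319.5 and 417, and Tbc1d24 had 288 and 376 (the authors' deposited table, adjusted p = 0.212 and 0.231). Tbc1d8b had 75.1 and 127 (log2 of -0.76, the authors' deposited table, adjusted p = 0.292). Tbc1d30 had a log2 of -1.02 from low means, 4.62 and 9.36 (the authors' deposited table). On the other side Tbc1d10c, the calcineurin inhibitor carabin of lymphocytes, chosen after its values were seen, had means of 923 and 785 (log2 of 0.23, the authors' deposited table, adjusted p = 0.408), and it ranked 3 among all members in level per kilobase. In the reference annotation 64.4% of its exon bases also belong to AC109138.8 on the same strand, so its level is uncertain.

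The calls are given here by the level of the gene. Of 27 members with a mean from 500 to 2000, 0 passed and 1 (Tbc1d9b) had an unadjusted p under 0.05, while 6.21% of all rows in that range passed. Of 43 members with a mean from 50 to 500, 5 passed, or 11.6%, against 7.74% of all rows in the range. Of 16 members with a mean under 50, 1 (Rab3c) passed, or 6.25%, against 4.19% of such rows. Among the 70 members with a mean of at least 50, 53 (75.7%) lay within 0.25 of 0 on the log2 scale, beside 65.3% of such rows, and 2 (2.86%) lay beyond 1, beside 3.77%. These shares describe the table, and no test of the family against other genes was run. Set side by side per kilobase, 14 groups of related members also show which form is the more abundant. Among them Rab4b shares 85.2% of its exon bases with Gm21983 on the same strand and Rab2b 70.9% with Gm43766 on the other, so their values are uncertain.

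**Figure D4:**
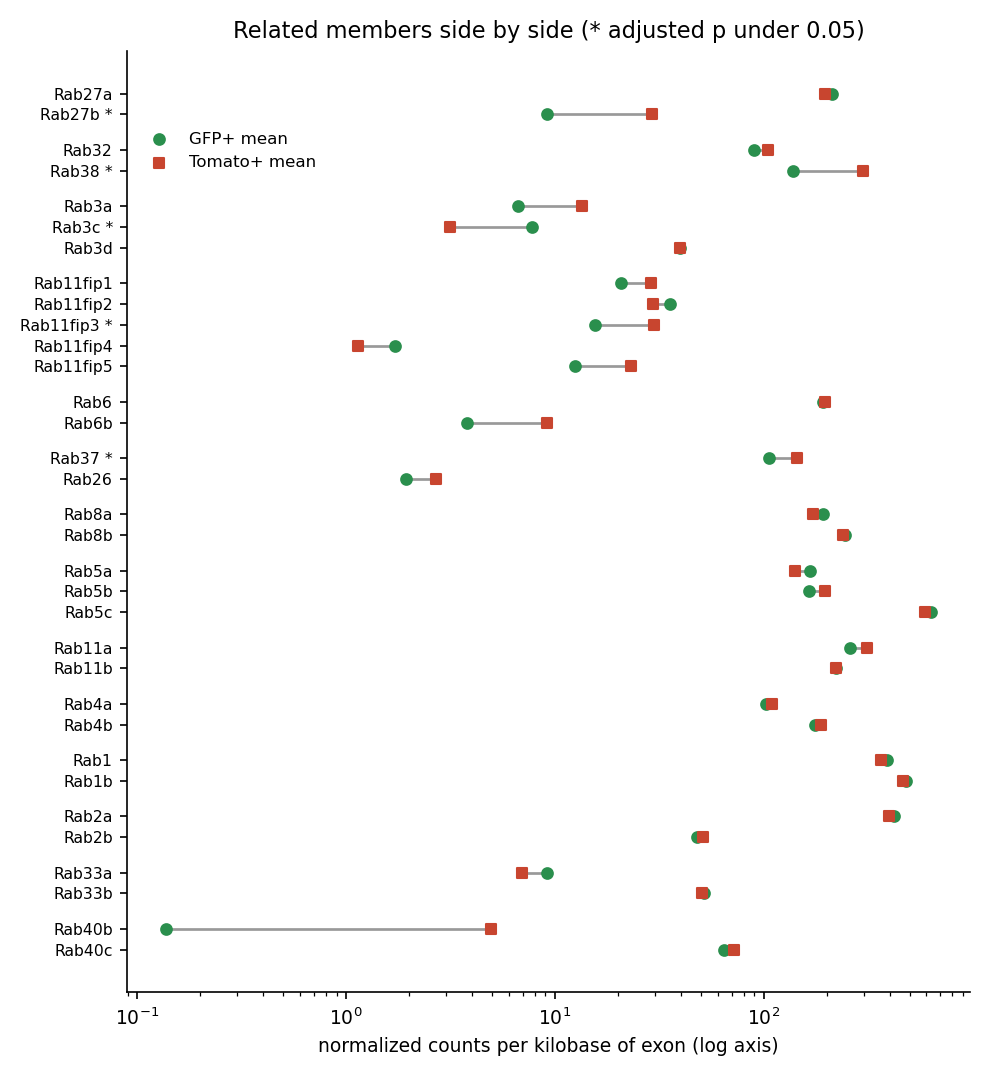
Normalized counts per kilobase of exon in GFP+ (green circles) and Tomato+ (red squares), on a log axis, for groups of related members; asterisks mark an adjusted p under 0.05. The called genes Rab27b and Rab3c lie well below their most abundant relative, as does Rab6b, which was not called, Rab38 is the more abundant of its pair, and the Rab1, Rab2 and Rab4 pairs show little distance between fractions; the far left point is the GFP+ mean of Rab40b.

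RefSeq start regions (GRCm38.p6, 250 bases before to 50 after a transcription start) were at hand for 70 of the 86 members, with 95 regions. Of the 6 called genes, those of Rab3c and Rab11fip3 were listed and are printed here. The listing left out a chromosome, so regions of other called genes may be missing from it. These 2 genes were called in opposite directions. Capitals mark any match to 4 motifs searched on both strands, which may overlap one another. The E-box was searched as CACGTG. The GATA motif, bound by a family of blood cell regulators, was searched as AGATAA. The cyclic AMP response element (CRE) was searched as TGACGTCA, and the motif of ETS factors as CCGGAAGT. The Rab3c region, chr13:110280157-110280456 on the minus strand, has 50.7% G and C and 11 CpG. The Rab11fip3 gene has 2 listed starts, chr17:26069469-26069768 with 60.3% G and C and 30 CpG, and chr17:26021811-26022110 with 53.0% and 5 CpG, both on the minus strand.
Rab3c: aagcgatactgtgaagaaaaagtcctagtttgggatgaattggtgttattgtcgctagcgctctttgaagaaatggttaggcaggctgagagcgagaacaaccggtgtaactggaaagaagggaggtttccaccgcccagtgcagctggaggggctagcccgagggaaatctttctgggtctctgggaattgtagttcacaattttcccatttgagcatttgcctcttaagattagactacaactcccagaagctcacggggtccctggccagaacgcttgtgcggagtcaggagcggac
Rab11fip3, first start: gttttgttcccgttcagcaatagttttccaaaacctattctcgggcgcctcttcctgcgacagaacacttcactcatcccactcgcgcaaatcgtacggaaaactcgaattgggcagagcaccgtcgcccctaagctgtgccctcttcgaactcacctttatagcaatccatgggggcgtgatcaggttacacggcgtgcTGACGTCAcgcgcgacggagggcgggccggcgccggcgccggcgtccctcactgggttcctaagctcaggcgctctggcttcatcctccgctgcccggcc
Rab11fip3, second start: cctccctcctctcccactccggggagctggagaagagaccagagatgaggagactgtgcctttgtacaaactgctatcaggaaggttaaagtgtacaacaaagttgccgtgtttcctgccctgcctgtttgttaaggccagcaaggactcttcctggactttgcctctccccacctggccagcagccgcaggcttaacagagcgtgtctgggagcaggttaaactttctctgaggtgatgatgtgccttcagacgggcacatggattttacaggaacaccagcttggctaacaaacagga
Of these 3 regions, only the first of Rab11fip3 holds one of the motifs, a CRE. Over all member regions the median was 62.0% G and C with 23 CpG, beside 60.3% and 20 CpG in the 11734 regions of all genes measured here under the same symbol. An E-box was present in 15 member regions (15.8%), beside 9.79% of the regions of measured genes and 7.15% of all RefSeq regions. A GATA motif was in 2 (2.11%), beside 6.83% and 11.2%. Some genes have several regions, each counted, and differences between these shares were not tested. A CRE was in 2.11%, beside 2.93% and 1.79%, and an ETS motif in 6.32%, beside 7.45% and 3.89%. A match is a stretch of letters and does not show that a factor binds.

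The rest of the Rab machinery, from lists of genes that are not members, also held a few calls. Of 109 measured genes 5 were lower and 1 was higher in GFP+, 5.50% in all beside the 7.49% of all rows, and the median log2 was -0.11. Among 48 effectors and related genes 3 were lower and none was higher, or 6.25% called. Ocrl, the inositol phosphatase of Lowe syndrome that binds several Rabs, averaged 309.6 in GFP+ against 613 in Tomato+, 1.98-fold lower in GFP+ (the authors' deposited table, adjusted p = 1.34e-05). Eea1, the tether that Rab5 recruits to early endosomes, had 367 and 522, 1.42-fold lower (the authors' deposited table, adjusted p = 0.0338). Bicd1, which links Rab6 vesicles to dynein, had 28.4 and 58.0, 2.04-fold lower (the authors' deposited table, adjusted p = 0.0348). The Rab5 tether was called, while Rab5c and, picked after their values were seen, Rab5a and Rab5b were not, Rab5a, Rab5b and Rab5c lying at log2 values of 0.23, -0.24 and 0.10 (the authors' deposited table).

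Among 43 exchange factors 2 were lower and 0 higher, or 4.65% called, below the 7.49% of all rows. One of them, Dennd2d, a DENN-domain protein, averaged 176 in GFP+ against 281 in Tomato+, 1.60-fold lower (the authors' deposited table, adjusted p = 0.0223). Of the 7 genes of prenylation and membrane cycling 1 (14.3%) was called. This was Gdi2, a GDI that holds inactive Rabs in the cytosol. It was 1.37-fold higher in GFP+, with means of 3547 and 2593 (the authors' deposited table, adjusted p = 0.0306). None of 11 other TBC proteins passed, with 1 at an unadjusted p under 0.05. Of the 11, 10 (90.9%) had a log2 below 0, beside 48.8% of all rows.

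**Figure D5:**
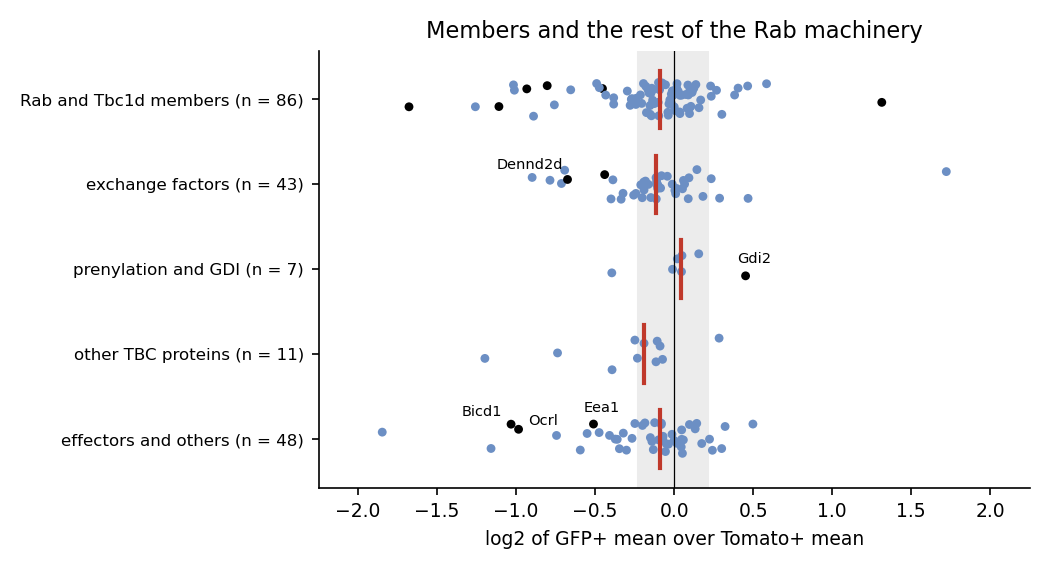
Log2 of the GFP+ over the Tomato+ mean for the members (Rab40b lies beyond the axis) and for 4 lists of other Rab machinery; black points have an adjusted p under 0.05, red bars are medians and the grey band is the middle 50% of all rows. The medians of the members, exchange factors, other TBC proteins and effectors lie between -0.19 and -0.09, and that of the prenylation and GDI list lies at 0.05, with Gdi2 as its called gene.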

How the data were processed

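RNA-seq of sorted E14.5 fetal liver cells was deposited as 1 table of 14268 rows that compares 4 GFP+ with 4 Tomato+ libraries. Trizol RNA went into NEBNext Ultra libraries, per the labels. The submitters' processing notes name DESeq, bedtools, TopHat, TopHat2 2.0.11, Bowtie2 2.2.1 and build mm9; what each tool did, the annotation and any counting by strand were not given in the sources used here. For each row the authors deposited, per the file headers, a baseMean over all libraries and for each fraction, a signal here read as a mean normalized count. The authors' fold ratio (Tomato+ over GFP+), its log2 value, their p-value and adjusted p-value stand beside it, per the file headers. The ratio equalled the quotient of the means within a relative 7.8e-07, and Benjamini-Hochberg adjustment of the p-value over all rows gave the adjusted p-value within 5.3e-08.

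A repeated header line was dropped and the sign turned, so that positive log2 means higher in GFP+. No member symbol had more than 1 row. A call is the authors' adjusted p under 0.05 across all genes; no test was run on values per library, since the table holds none. The members and lists were chosen with earlier results of these data known. Genes named are those called, the 5 with the highest means, the 5 largest values in each direction among those not called, the smallest p of each role, and called genes of the other machinery (some are not reported here); others are introduced as chosen or picked with their values known. Levels per kilobase divide a group mean by the union of exons of basic transcripts in GENCODE M21, an annotation of another build (GRCm38). RefSeq lists 99 protein-coding genes of these names: 86 are members (3 matched through an older symbol), Rab5if, Rab7b, Tbc1d31 and Tbc1d32 stand under another symbol, and 9 were not analysed here. Adjustment and counting were tested on simulated data. Python 3.11.15, pandas 2.3.3 and numpy 2.4.6 were used.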

Additional observations from a re-analysis of the deposited data

How the results depend on the processing

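No paired analysis was possible because each gene has 1 mean per fraction here, with libraries not shown singly. Leaving out libraries, other size factors and a replicate term were therefore not run, and the depth of each library, which limits what low means can show, is unknown. The member count of 6 became 3 (Rab27b, Rab38 and Rab3c) with a Bonferroni adjustment, and lay between 4 and 9 under the other alternatives, among them adjusted p thresholds of 0.01 and 0.1. The 6 further machinery genes became 1 (Ocrl) at an adjusted p under 0.01 and 1 with Bonferroni. These criteria are stricter by construction. Scaling both fractions to the same total lowers every log2 value by 0.16: the members' median moved from -0.09 to -0.25, that of all rows from 0.01 to -0.15, and the members above 0 from 32 to 11, while the 6 calls kept their direction. The other median alternatives gave -0.12 to -0.07. With adjustment over rows of a mean of at least 50, Rab3il1 reached an adjusted p of 0.0449 (Benjamini-Hochberg, from the authors' deposited p-values) and Rab3c, with an overall mean of 48.5, was not tested.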

Other observations

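The 4 genes of the family that the table lists under an older symbol were not called either. Rab5if, listed as 1110008F13Rik, averaged 1247 in GFP+ against 1034 in Tomato+, and Tbc1d31, listed as Wdr67 and already counted among the other TBC proteins, 399 and 328 (log2 of 0.27 and 0.28, adjusted p = 0.268 and 0.826, the authors' deposited table). Tbc1d32, a protein of cilia, had 99.9 and 111, and Rab7b had only 6.06 and 3.06, in the authors' deposited table.

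Other parts of the vesicle machinery were read by symbol, chosen after the data were seen. Of 40 SNARE and Sec1/Munc18 genes 3 were lower in GFP+ and 0 higher, and these 7.5% are near the 7.49% of all rows called. Among these Snap23 and Vamp5, which act in membrane fusion, were 1.45-fold and 1.38-fold lower in the authors' deposited table. Of 11 exocyst genes, which tether secretory vesicles, 2 (18.2%) were called: Exoc6b and Exoc3l were 1.64-fold and 2.21-fold lower in the authors' deposited table. None of 30 Vps genes and none of 30 sorting nexins passed in the authors' DESeq comparison, with 2 and 1 at an unadjusted p under 0.05. Of 28 Arf and Arl GTPases 1 (3.57%) was called, Arl4c, which was 1.89-fold higher in the authors' deposited table.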
